A study of Arabidopsis thaliana with 12 samples.

Results

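The 28 genes described here are the ribosomal protein, RNA polymerase and housekeeping genes that Arabidopsis thaliana keeps in its plastid genome. They were chosen by name and place, with no filter on signal, but with earlier results of these data known. Every plastid gene whose symbol starts with rps, rpl or rpo was taken, together with matK, accD, clpP, ycf1 and ycf2. These 28 genes had 29 probe sets among the 22746 non-control probe sets of the array, because rps12 had 2. They comprised 10 genes for proteins of the small ribosomal subunit, 9 for proteins of the large subunit, 4 for RNA polymerase subunits and 5 housekeeping genes. The remaining 48 plastid genes with a named probe set encode subunits of the NDH complex (11) or proteins of photosynthesis (37).

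RNA came from roots of 7-day-old seedlings and was hybridised to Affymetrix ATH1 arrays, with 12 arrays in 4 groups of 3. The study addressed candidate target genes of ARABIDILLO, an F-box protein with Armadillo repeats that promotes lateral root development. The ara1OX roots carried 35S:Ara1YFP, a fusion of ARABIDILLO-1 to yellow fluorescent protein behind a viral promoter that is active in most plant tissues, in the Col-0 background, and were set against wild-type Col-0 roots. The ara1/2mut roots came from a Col-3 line with mutations in ARABIDILLO-1 and ARABIDILLO-2, and were set against wild-type Col-3 roots. All seedlings shared one regime: the seed was chilled at 4 °C for 2 days, and plants then grew at 24 °C under days of 16 h and nights of 8 h, on 1% agar with salts at 0.5 strength. The labels do not say how many independent lines stood behind ara1OX or ara1/2mut, nor whether the numbered replicates were separate cultures. Each p-value thus reflects how far these arrays lay apart, a distance that may be purely technical. The levels of the targeted genes themselves are not analysed here, since neither has a named probe set.

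Plastids descend from a photosynthetic bacterium and keep a small genome with a bacterial type of ribosome and RNA polymerase. Part of each complex is encoded in the plastid and the rest in the nucleus, so both genomes have to contribute. The plastid-encoded polymerase core is made of the rpo subunits, and a separate nuclear-encoded polymerase of the phage type transcribes rpoB and several housekeeping genes. Root plastids are mostly colourless or store starch, and they still need ribosomes, fatty acid synthesis and protein turnover. Many plastid genes are transcribed together with their neighbours as long multi-gene RNAs.

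Signals are the deposited MAS5 intensities on a linear scale. They were compared within a probe set only, since brightness of different probe sets cannot be set against each other. A probe set was tested where its mean log2 signal over the 12 arrays reached 4.49, a signal of 22.4. This held for 24 of the 29 member probe sets, and 5 fell below it. The 5 were 1 of the 2 rps12 probe sets, rps14, rps16, rpoB and ycf2. Their differences below come from a fit without the filter. In whole-root RNA, fewer plastids or cells and less RNA per cell cannot be told apart.

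Members varied widely between arrays of one group. The residual SD of log2 signal within groups had a median of 0.583 over the 24 tested member probe sets, with a range of 0.253 for rpl32 to 1.00 for rpl14. Over all 13648 tested probe sets its median was 0.282. It was 0.268 over the 7168 probe sets with mean signals between the lower and upper quartiles of the tested members. That range leaves out the members of lowest signal, rpl14 among them, and those of highest. In all, 22 of the 24 tested members lay above the median of all tested probe sets. The steadiest was rpl32, a large-subunit protein, whose highest array was 1.5 times its lowest. The least steady tested members were rpl14 at 11.75 times and rps4 at 10.25 times. This spread sets the size of difference that 3 arrays per group could show.

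**Figure D1:**
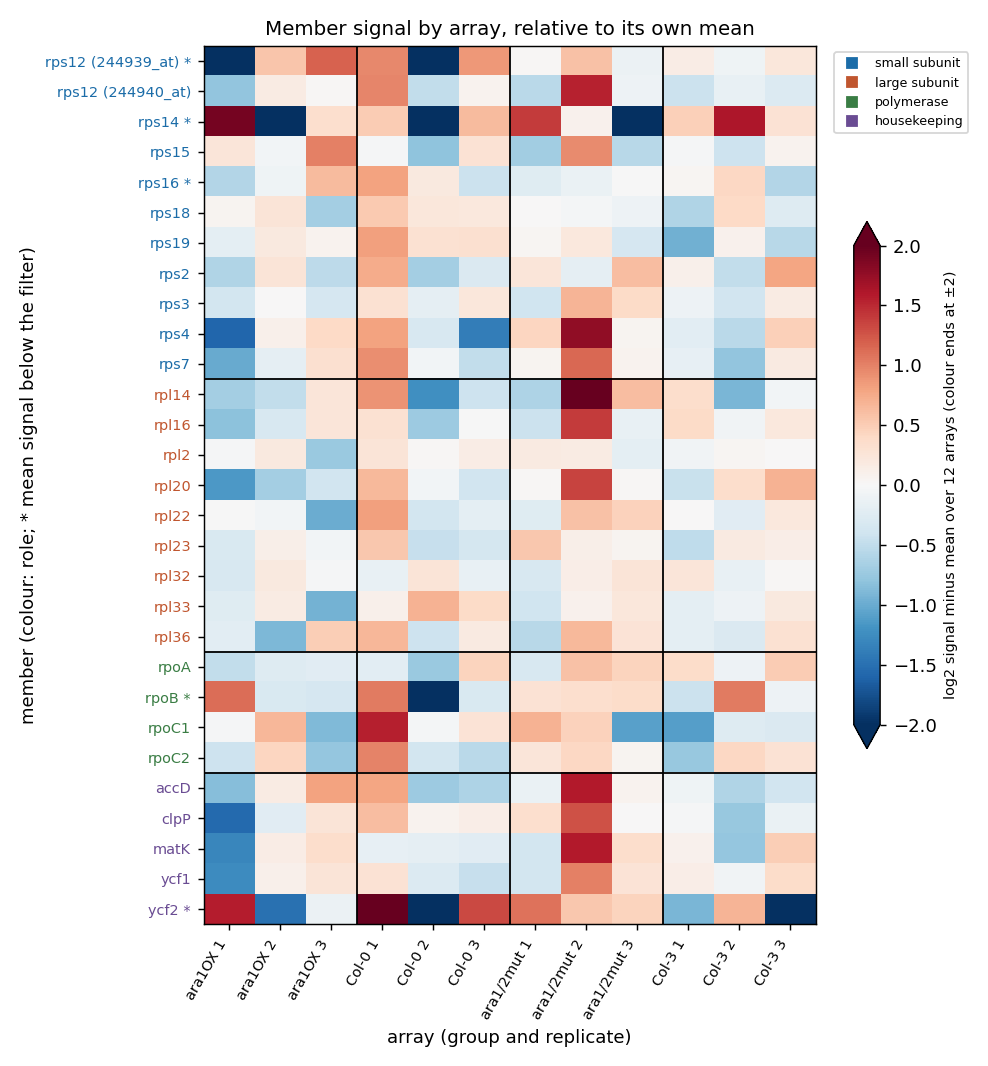
Each row is a member probe set and each column an array, by group and replicate. The colour gives the log2 signal minus that probe set's mean over the 12 arrays, ending at ±2. An asterisk marks the 5 probe sets below the filter. Columns ara1/2mut replicate 2 and Col-0 replicate 1 are mostly red, and ara1OX replicate 1 is mostly blue.

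No member changed in any comparison after Benjamini-Hochberg adjustment in limma. In ara1OX roots 24 of 29 member probe sets lay below Col-0 (median log2 difference -0.21), against -0.03 for all tested probe sets. In ara1/2mut roots 25 of 29 lay above Col-3 (median 0.25), against 0.01 for all tested probe sets. Between the wild types, 14 of 29 had the higher signal in Col-3, and the median was -0.05 against -0.00 for all tested probe sets. The comparison of ara1/2mut with Col-3 and that of Col-3 with Col-0 share the Col-3 arrays, and the comparison of ara1OX with Col-0 shares the Col-0 arrays with that of the wild types. The members' values in the 3 comparisons are therefore not independent of each other.

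After adjustment no single member stood apart, and few probe sets did on the whole array. At an adjusted p under 0.05, 0.022% of tested probe sets (3) were called in ara1OX, and none was a member. None of the 13648 was called in ara1/2mut or between the wild types. At an unadjusted p under 0.05 in limma, 1 of the 24 tested members (rpl33) was lower in ara1OX and none was higher, beside 4.09% lower and 2.34% higher of all tested probe sets. In ara1/2mut 1 member (clpP) was higher and none lower, beside 1.78% in each direction. In Col-3 against Col-0 2 members (rps19 and rpoC1) were lower and none higher, beside 2.67% lower and 2.42% higher. Groups without overlap were counted over all 29 member probe sets and all 22746 non-control probe sets. In ara1OX 1 of 29 (rps19) lay wholly below Col-0 and none wholly above, beside 5.26% and 5.86% of all probe sets. In ara1/2mut 1 (clpP) lay wholly above Col-3 and none wholly below, beside 4.61% and 4.14%. In Col-3 3 (rps19, rpoC1 and clpP) lay wholly below Col-0 and none wholly above, beside 5.74% and 5.95%.

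**Figure D2:**
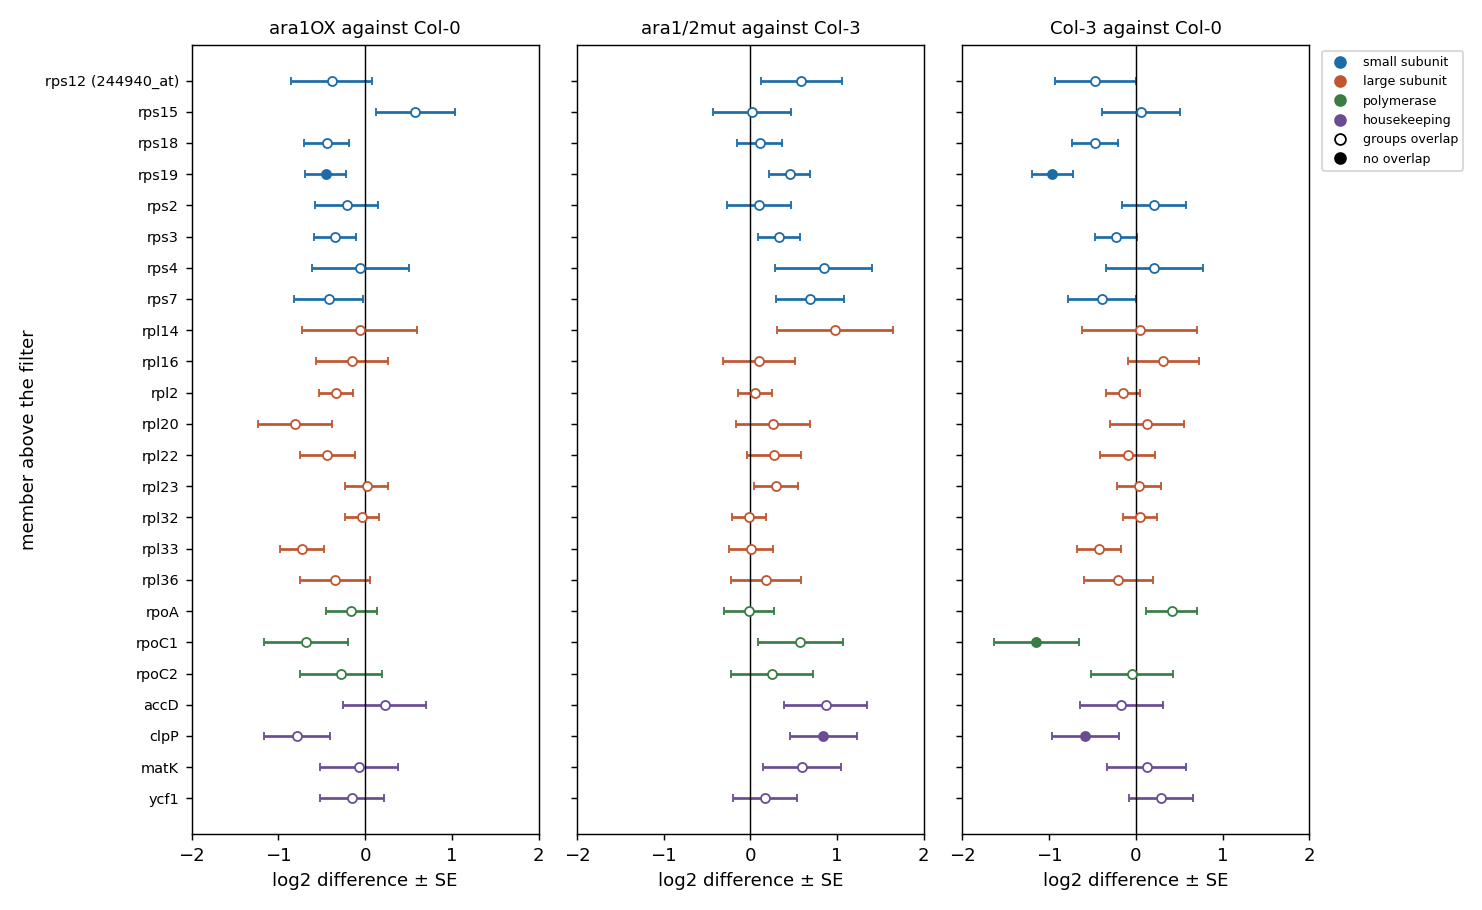
Fitted log2 differences (horizontal axis) with their standard errors for the 24 tested member probe sets, in 3 panels for ara1OX (over Col-0), ara1/2mut (over Col-3) and the wild types (Col-3 over Col-0). Colours give the role, and a filled point marks groups that do not overlap (rps19 in the first panel, clpP in the second, and rps19, rpoC1 and clpP in the third). Points lie mostly left of 0 for ara1OX and mostly right of 0 for ara1/2mut.

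The small ribosomal subunit reads the messenger RNA. Its 11 member probe sets had a median log2 difference of -0.21 in ara1OX (2 above 0), 0.11 in ara1/2mut (9 above 0) and -0.23 in Col-3 against Col-0 (5 above 0). The member of smallest p in Col-3 against Col-0 was rps19, which encodes a protein of the subunit's head. Its signal was 286, 373 and 343 in ara1OX roots, against 577, 402 and 406 in Col-0. It was 334, 377 and 259 in ara1/2mut, against 167, 345 and 221 in Col-3. Col-0 was thus the group with the highest rps19 signal, and each of its 3 arrays stood above every ara1OX and every Col-3 array. The log2 difference was -0.45 ± 0.24 (SE, limma adjusted p 0.808) for ara1OX against Col-0 and 0.45 ± 0.24 (adjusted p 0.999) for ara1/2mut against Col-3, where 1 Col-3 array lay among the ara1/2mut arrays. For Col-3 against Col-0 it was -0.96 ± 0.24, a 1.95-fold lower signal, with a limma p of 0.000967 that became 0.817 after adjustment over all tested probe sets. The adjusted p for this member ran from 0.0707 with array weights to 1.00 in other settings.

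The small-subunit member that stood highest in ara1OX was rps15, whose protein binds the small-subunit RNA. It had a signal of 34.0, 27.6 and 58.0 in ara1OX roots, against 28.4, 16.4 and 35.0 in Col-0, and the ranges overlapped. The log2 difference was 0.58 ± 0.45 (limma adjusted p 0.866). In ara1/2mut it had 17.8, 55.2 and 19.5, against 28.4, 21.5 and 30.3 in Col-3, a difference of 0.02 ± 0.45 (adjusted p 0.999) with replicate 2 alone far above the others.

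The same array stood out for rps4, whose bacterial counterpart starts assembly of the small subunit. Its signal was 196, 499 and 153 in ara1/2mut, against 127, 100.2 and 204 in Col-3, with a log2 difference of 0.84 ± 0.56 (limma adjusted p 0.999). Without ara1/2mut replicate 2 the difference was 0.33 ± 0.58. In ara1OX rps4 had 48.7, 158 and 192, against 254, 117 and 55.8 in Col-0. The 2 groups covered nearly the same range, and their difference was -0.06 ± 0.56. For rps7, a protein that helps to build the subunit's head, the signal was 181, 385 and 183 in ara1/2mut, against 155, 101 and 196 in Col-3. The log2 difference was 0.69 ± 0.39 (limma adjusted p 0.999), and 0.33 ± 0.41 without ara1/2mut replicate 2. In ara1OX rps7 had 86.4, 153 and 216, against 332, 167 and 124 in Col-0, a difference of -0.42 ± 0.39.

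The remaining small-subunit members differed by less than 0.6 in log2 among the tested ones. The rps3 protein lies where messenger RNA enters the ribosome, and its signal averaged 267 ± 40.8 in ara1OX and 341 ± 59.2 in Col-0 (SD, n = 3 each), with 379 ± 133 in ara1/2mut and 292 ± 55.8 in Col-3. Its log2 difference was -0.35 ± 0.24 for ara1OX and 0.33 ± 0.24 for ara1/2mut. For rps18, a protein of the subunit's platform, the averages were 85.2 ± 26.3 in ara1OX and 112 ± 13.9 in Col-0, with 86.9 ± 2.97 in ara1/2mut and 84.2 ± 30.6 in Col-3. The rps18 differences were -0.45 ± 0.26, 0.11 ± 0.26 and, for Col-3 against Col-0, -0.47 ± 0.26, and all of these groups overlapped. The signal of rps2 averaged 98.0 ± 34.8 in ara1OX and 119.7 ± 64.2 in Col-0, with 138 ± 37.6 in ara1/2mut and 135 ± 59.2 in Col-3, so its group means lay closer together than its arrays.

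The rps12 protein sits at the decoding site, and in plants its messenger is joined by trans-splicing from RNAs made at separate places. Its tested probe set had a signal of 29.03, 123 and 39.4 in ara1/2mut, against 31.4, 37.8 and 35.0 in Col-3, and the log2 difference of 0.58 ± 0.47 came with 1 high array. Its probe set below the filter ran from 1.99 to 22.0 over the 12 arrays and differed by 0.07 ± 0.93. The probe sets of rps14 and rps16 were also below the filter, at 1.73 to 40.2 and 11.9 to 31.2. Standard errors of 1.13 for rps14 and 0.52 for rps16 were larger than their differences of 0.41 and -0.20 in ara1OX. In ara1/2mut the differences were -1.01 for rps14 and -0.08 for rps16, again within those errors.

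The large ribosomal subunit forms the peptide bond and holds the exit tunnel. Its 9 members had a median log2 difference of -0.33 in ara1OX (1 above 0), 0.18 in ara1/2mut (8 above 0) and 0.03 in Col-3 against Col-0 (5 above 0). The member of smallest p in ara1OX was rpl33, which in tobacco is dispensable under normal growth and needed in the cold. Its signal was 164, 219 and 101 in ara1OX roots, against 209.6, 315 and 252 in Col-0, and ara1OX replicate 2 lay above the lowest Col-0 array. The log2 difference was -0.73 ± 0.25, a 1.66-fold lower signal, with a limma p of 0.0108 and an adjusted p of 0.630. Leaving out ara1OX replicate 3, the lowest array, moved it to -0.43 ± 0.23. In ara1/2mut rpl33 had 148, 207 and 229, against 169, 182 and 224 in Col-3, a difference of 0.01 ± 0.25.

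Lowest of the tested members in ara1OX was rpl20, whose bacterial counterpart acts early in assembly of the large subunit. It had 14.1, 19.4 and 24.0 in ara1OX roots, against 49.0, 30.0 and 23.9 in Col-0, so the groups met at 24.0 and 23.9. The log2 difference was -0.81 ± 0.43 (limma adjusted p 0.808). In ara1/2mut rpl20 had 31.7, 79.2 and 31.5, against 22.9, 39.7 and 50.6 in Col-3, a difference of 0.26 ± 0.43 that was -0.18 ± 0.44 without ara1/2mut replicate 2.

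The highest fitted difference of a tested member in ara1/2mut belonged to rpl14, a protein at the interface of the subunits. Its signal was 15.4, 119 and 36.3 in ara1/2mut, against 30.2, 12.6 and 22.8 in Col-3. The difference of 0.98 ± 0.67 (limma adjusted p 0.999) rested on replicate 2, at 5.02 times the mean of the other 2 arrays on the log scale. Without that array it was 0.20 ± 0.65. In ara1OX rpl14 had 14.8, 16.8 and 27.95, against 44.3, 10.1 and 17.8 in Col-0, with a difference of -0.06 ± 0.67.

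The rpl2 and rpl32 probe sets were among the steadiest. The rpl2 protein lies next to the peptidyl transferase centre, and its probe set had 1366, 1599.9 and 837 in ara1OX roots, against 1670.1, 1424 and 1539.6 in Col-0. Its log2 difference was -0.33 ± 0.20 (limma adjusted p 0.829), with ara1OX replicate 3 far below the other arrays. In ara1/2mut rpl2 averaged 1453 ± 201, against 1388 ± 55.8 in Col-3, a difference of 0.06 ± 0.20. The steadiest member, rpl32, had 167, 238 and 205 in ara1OX roots, against 188, 249.6 and 188 in Col-0. In ara1/2mut it had 166, 227 and 249.8, against 247, 187 and 211 in Col-3. Its differences were -0.04 ± 0.20 in ara1OX, with a 95% interval of -0.45 to 0.38, and -0.02 ± 0.20 in ara1/2mut, with an interval of -0.43 to 0.40.

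Both rpl22 and rpl23 encode proteins around the exit tunnel. The rpl22 signal averaged 169.6 ± 57.5 in ara1OX and 235 ± 112 in Col-0, with 256 ± 72.0 in ara1/2mut and 207 ± 31.7 in Col-3. For rpl23 the averages were 226 ± 32.2 in ara1OX and 233 ± 95.1 in Col-0, with 282 ± 54.0 in ara1/2mut and 232 ± 56.1 in Col-3. The log2 differences in ara1OX were -0.44 ± 0.32 for rpl22 and 0.02 ± 0.25 for rpl23, and in ara1/2mut 0.27 ± 0.32 and 0.30 ± 0.25, with overlap in each case. The genes rpl16 and rpl36, for a protein near the peptidyl transferase centre and a small zinc-binding protein, differed by -0.16 ± 0.41 and -0.35 ± 0.40 in ara1OX. In ara1/2mut they differed by 0.10 ± 0.41 and 0.18 ± 0.40. The rpl16 signal reached 131 in ara1/2mut replicate 2, with no other array above 65.0.

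The polymerase genes encode the alpha subunit (rpoA), the catalytic beta subunit (rpoB) and a beta-prime subunit split into 2 proteins (rpoC1 and rpoC2). Their median log2 difference was -0.22 in ara1OX (1 of 4 above 0), 0.21 in ara1/2mut (3 of 4) and 0.19 in Col-3 against Col-0 (2 of 4). The rpoC1 signal was 84.5, 137 and 46.7 in ara1OX roots, against 254, 84.2 and 104 in Col-0, a difference of -0.68 ± 0.49 (limma adjusted p 0.859). It was 139.8, 119 and 40.7 in ara1/2mut, against 40.2, 72.3 and 70.2 in Col-3, a difference of 0.58 ± 0.49 (adjusted p 0.999). All 3 Col-3 arrays lay below all 3 Col-0 arrays, and the difference of Col-3 against Col-0 was -1.15 ± 0.49, a 2.21-fold lower signal (limma p 0.0319, adjusted p 0.956). Without Col-0 replicate 1, the array at 254, it was -0.67 ± 0.49.

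The rpoA probe set stood highest of the tested members in Col-3 against Col-0 and lowest in ara1/2mut against Col-3. Its signal was 55.1, 65.2 and 66.5 in ara1OX roots, against 67.4, 46.6 and 106 in Col-0. In ara1/2mut it was 62.0, 116 and 106, against 99.7, 72.3 and 110.1 in Col-3. The log2 differences were -0.16 ± 0.29 in ara1OX, -0.02 ± 0.29 in ara1/2mut and 0.42 ± 0.29 in Col-3 against Col-0 (limma adjusted p 0.956, 0.999 and 0.969). The ara1OX arrays were the closest together of the 4 groups, and the Col-0 arrays the farthest apart. For rpoC2 the averages were 22.9 ± 10.2 in ara1OX and 29.5 ± 18.7 in Col-0, with 30.2 ± 3.77 in ara1/2mut and 26.9 ± 10.3 in Col-3. The rpoB probe set stayed below the filter, between 2.16 and 30.9, and its standard error of 0.79 was close to its difference of 0.82 in ara1OX and far above that of 0.16 in ara1/2mut.

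The 5 housekeeping genes have separate tasks. In ara1/2mut all 5 lay above Col-3, and their median log2 difference was 0.84. In ara1OX 1 of 5 lay above Col-0 (median -0.15), and for the wild types 2 of 5 were higher in Col-3 (median -0.17). The member of smallest p in ara1/2mut was clpP, the plastid-encoded proteolytic subunit of the Clp protease, which degrades proteins of the plastid stroma. Its signal was 302, 758 and 1056 in ara1OX roots, against 1365, 933 and 970.0 in Col-0. It was 1115, 2138 and 886 in ara1/2mut, against 874, 523 and 805 in Col-3. Every ara1/2mut array stood above every Col-3 array, the closest pair being 886 and 874, while 1 ara1OX array lay inside the Col-0 range. The log2 difference was -0.78 ± 0.38 (limma adjusted p 0.784) for ara1OX against Col-0, 0.84 ± 0.38 (p 0.0442, adjusted p 0.999) for ara1/2mut against Col-3, and -0.58 ± 0.38 (adjusted p 0.968) for Col-3 against Col-0. The difference in ara1OX was -0.26 ± 0.32 without ara1OX replicate 1 and -1.17 ± 0.38 without ara1OX replicate 3. That in ara1/2mut was 0.47 ± 0.39 without replicate 2.

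The accD gene encodes a carboxyltransferase subunit of acetyl-CoA carboxylase, the first enzyme of fatty acid synthesis. Its signal was 43.7, 88.7 and 138 in ara1OX roots, against 136, 47.6 and 51.5 in Col-0. It was 72.4, 239 and 83.4 in ara1/2mut, against 75.1, 52.1 and 60.7 in Col-3. The differences were 0.23 ± 0.48 in ara1OX (limma adjusted p 0.962) and 0.87 ± 0.48 in ara1/2mut (adjusted p 0.999), and the second was 0.33 ± 0.46 without ara1/2mut replicate 2. The matK gene, which lies in a tRNA intron and encodes a maturase for plastid introns, showed the same array. It had 207, 799.8 and 339.8 in ara1/2mut, against 283, 156 and 373 in Col-3, a log2 difference of 0.59 ± 0.45 that was 0.06 ± 0.42 without replicate 2. In ara1OX matK had 108, 296 and 341, against 237, 236 and 227 in Col-0. The SD of matK was 123 in ara1OX and 5.08 in Col-0, and the log2 difference was -0.07 ± 0.45.

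A pair of large membrane proteins completes the group, ycf1 as a part of the protein import machinery of the inner envelope and ycf2 as a part of a motor complex linked to import. The ycf1 signal averaged 115 ± 53.5 in ara1OX and 119 ± 33.6 in Col-0, with 171 ± 80.1 in ara1/2mut and 143 ± 22.0 in Col-3. Its log2 differences were -0.15 ± 0.37 in ara1OX and 0.17 ± 0.37 in ara1/2mut, and the second was -0.18 ± 0.38 without ara1/2mut replicate 2. The ycf2 probe set ran from 0.666 to 22.2 over the 12 arrays. Its difference of 1.78 ± 1.17 in ara1/2mut was the highest of all 29, and comes from signals of 11.6, 7.86 and 7.44, against 2.88, 8.71 and 0.666 in Col-3, all below the filter's 22.4.

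**Figure D3:**
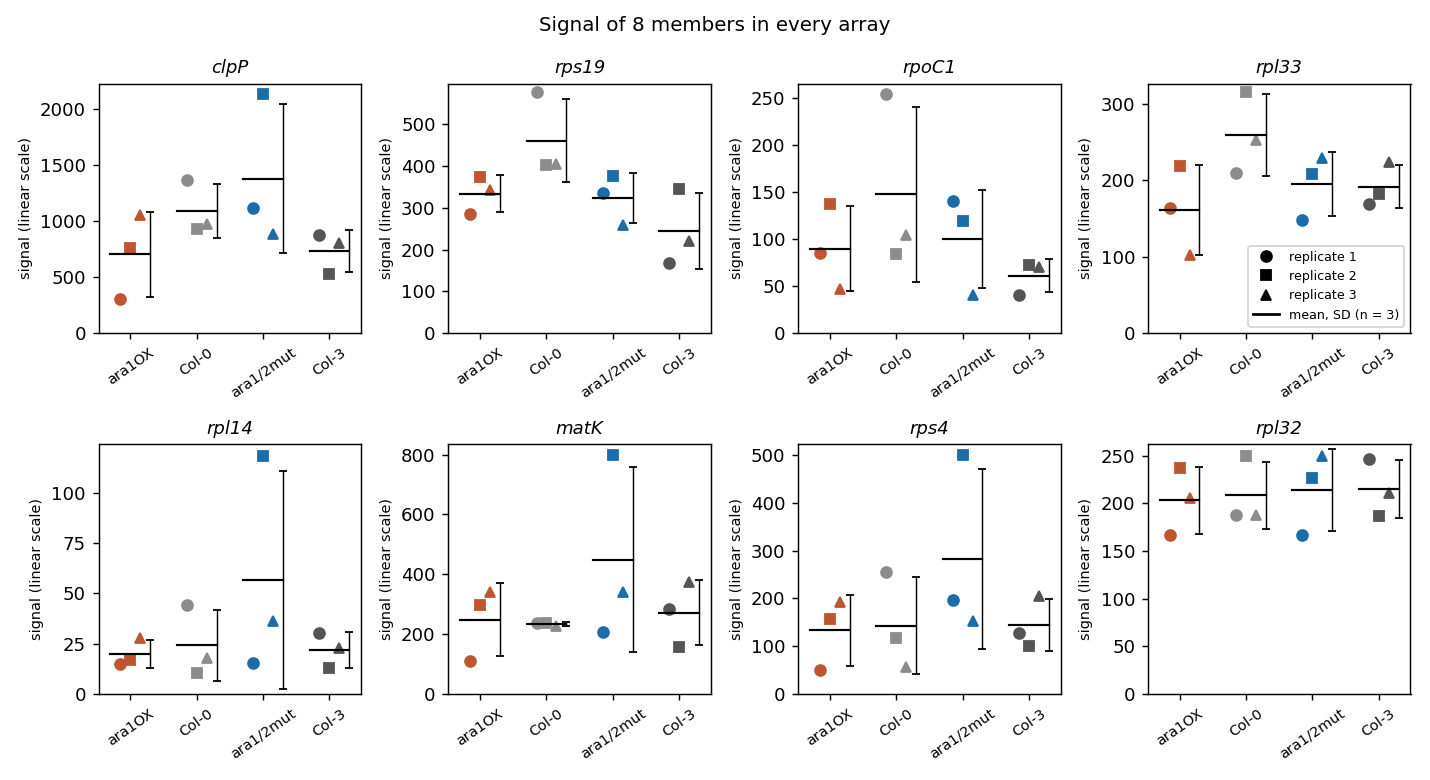
Signal on a linear scale from 0 (vertical axis) of clpP, rps19, rpoC1, rpl33, rpl14, matK, rps4 and rpl32 in every array, by group (ara1OX, Col-0, ara1/2mut, Col-3), with the mean and SD of 3 arrays. Symbols give the replicate number. In ara1/2mut the square of replicate 2 is far above the other arrays for clpP (2138), rpl14 (119), matK (799.8) and rps4 (499), while rpl32 stays between 166 and 249.8 throughout.

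The difference between the ara1OX change and the ara1/2mut change was tested in the same fit, as the first log2 difference minus the second. None of the 24 tested members passed, beside 0.0147% of all tested probe sets (2). Of the 29 member probe sets 3 lay above 0, with a median of -0.55, against -0.04 for all tested probe sets. All 9 large-subunit members and all 5 housekeeping members lay below 0, with medians of -0.52 and -0.67. At an unadjusted p under 0.05 in limma 2 members lay below 0 and none above, beside 3.21% and 2.1% of tested probe sets. These were clpP, at -1.62 ± 0.54 (p 0.00884, adjusted p 0.867), and rps19, at -0.91 ± 0.33 (p 0.0159, adjusted p 0.905). The clpP value ran from -2.01 to -1.10 when each array was left out in turn. On the other side of 0 stood rps15, at 0.56 ± 0.64 (adjusted p 0.931).

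Genes that neighbour each other on the plastid genome can share a transcript, so their probe sets are not independent readings. By gene order, with the genes that have no named probe set passed over, the members fell into 10 runs. The strand of the genes was not used, so a run is a stretch of neighbours and need not be 1 transcript. The run rpl33, rps18, rpl20, rps12 and clpP lay below Col-0 in ara1OX for 6 of 6 probe sets, with a median log2 difference of -0.59, and above Col-3 in ara1/2mut for 6 of 6, with a median of 0.18. Both rps12 probe sets were counted here by the first position of their gene, although each is listed with 2 copies. Which genes of this run share a transcript, and whether the rps12 probe sets read it, was not tested. The rps12 probe set below the filter differed by -0.11 ± 0.93 in ara1OX and 0.07 ± 0.93 in ara1/2mut, so its side of 0 is uncertain. This run holds 4 of the 5 tested members of smallest p in ara1OX (rpl33, clpP, rpl20 and rps18). The run of 10 genes rpoA, rpl36, rpl14, rpl16, rps3, rpl22, rps19, rpl2, rpl23 and ycf2 had a median of -0.34 in ara1OX and 0.28 in ara1/2mut. The run rps2, rpoC2, rpoC1 and rpoB had medians of -0.25 and 0.21. Of all member probe sets 7, of rps12, rpl2, rpl23, ycf2, rps7 and ycf1, are listed with 2 copies of their gene or part of it. Their signal may sum both copies, which was not tested.

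The highest and lowest values of the members gathered in a few arrays. In ara1/2mut, replicate 2 held the highest value of its group for 18 of 29 member probe sets, beside 34.6% of all probe sets. It did so for 33 of 48 other plastid genes and 12 of 23 mitochondrial genes. For the mitochondrial genes replicate 1 came close, with the highest value for 11 of 23. In Col-0, replicate 1 was highest for 24 of 29 members, beside 35.8% of all probe sets, and also for 41 of 48 other plastid and 21 of 23 mitochondrial genes. Replicate 1 of ara1OX was lowest in its group for 18 of 29 members, beside 32.3% of all probe sets, and replicate 2 of Col-0 for 19 of 29, beside 35.6%. The median log2 signal of the 29 member probe sets was 5.75, 6.74 and 6.06 in the ara1OX arrays, against 7.09, 6.17 and 6.55 in the Col-0 arrays. It was 6.49, 6.94 and 6.39 in the ara1/2mut arrays, against 6.23, 6.18 and 6.23 in the Col-3 arrays, all of which were lower. The median differences moved when these arrays were left out. Without ara1/2mut replicate 2 the median difference from Col-3 was 0.10, with 17 of 29 above 0. Without Col-0 replicate 1 the median of ara1OX against Col-0 was 0.01, with 15 of 29 above 0, and that of Col-3 against Col-0 was 0.14, with 19 of 29 above 0. Without ara1OX replicate 1 the median of ara1OX against Col-0 was -0.07, with 12 of 29 above 0, and without Col-0 replicate 2 it was -0.50, with 2 of 29 above 0.

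**Figure D4:**
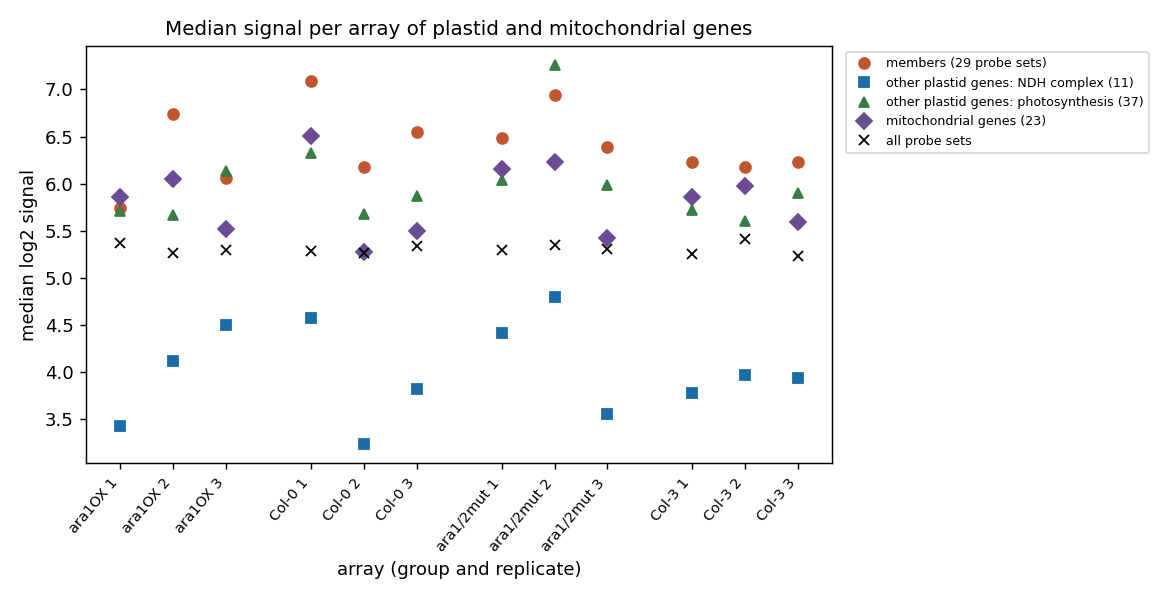
Median log2 signal (vertical axis) in each of the 12 arrays, by group and replicate, for the 29 member probe sets, 11 NDH genes, 37 photosynthesis genes, 23 mitochondrial genes and all probe sets. Heights of different lists are not comparable; the pattern across arrays is what the plot shows. Members, both other plastid lists and the mitochondrial genes are each highest within their group in Col-0 replicate 1 and in ara1/2mut replicate 2, while the median of all probe sets stays between 5.24 and 5.41. For the mitochondrial genes ara1/2mut replicates 1 and 2 lie close together, at 6.16 and 6.23.

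Other measures differed between these arrays too. The spiked-in hybridisation controls of ara1OX replicate 3 were 5.68 times those of the median array, and those of ara1/2mut replicate 2 were 2.39 times. The 3'-to-5' signal ratio of the GAPDH control, a sign of RNA integrity, lay between 0.964 and 1.04 in ara1OX and 0.879 and 1.14 in Col-0, and between 0.791 and 1.16 in ara1/2mut and 0.753 and 0.984 in Col-3. That of the ubiquitin control lay between 1.72 and 2.38 over the 12 arrays. The actin control spread most, with ratios of 7.12 to 14.0 in ara1OX and 13.3 to 17.1 in Col-0, and 8.09 to 25.2 in ara1/2mut and 10.7 to 11.6 in Col-3. The ratio of 8.09 was that of ara1/2mut replicate 2, the lowest of its group. The signal of the 25S ribosomal RNA control ran from 9.82 in ara1/2mut replicate 3 to 563 in Col-3 replicate 1, and was 271 in ara1/2mut replicate 2. All 6 root markers with a named probe set, of 31 listed, passed the filter (EXPA7, EXPA18, JKD, LBD16, LBD29 and PUCHI), and their summed signal was 704 to 828 in ara1OX and 611 to 720.1 in Col-0, and 581 to 723 in ara1/2mut and 567 to 594 in Col-3. Of 28 shoot markers 4 had a named probe set, and RCA and LHCB4.1 passed the filter while LHCB4.2 and PRK did not. The shoot sum was 188 to 235 in ara1OX and 182 to 248 in Col-0, and 195 to 394 in ara1/2mut and 217 to 288 in Col-3. In ara1/2mut replicate 2, where members were highest, the shoot sum was 195, the lowest of its group. In Col-0 replicate 1 it was 182, also the lowest of its group. The shoot markers above the filter differed in ara1/2mut replicate 2. There RCA was lowest of its group at 81.3, while LHCB4.1 was 104, against 228 and 74.7 in replicates 1 and 3. The part of spike level, RNA integrity, ribosomal RNA signal and shoot tissue in the members' values was not tested.

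The other plastid genes lay on the same side of 0 in their medians. Of the 48 other plastid genes 17 were above Col-0 in ara1OX, with a median log2 difference of -0.19, and 40 were above Col-3 in ara1/2mut, with a median of 0.38. Between the wild types 20 of 48 were higher in Col-3 (median -0.12). None of the 30 that were tested passed in any comparison. Those of smallest p in ara1OX were psbL, a small subunit of photosystem II, at -0.77 ± 0.27 (limma adjusted p 0.630), and ndhI, a subunit of the NDH complex, at -0.53 ± 0.23 (adjusted p 0.730). In ara1/2mut they were ndhA at 0.69 ± 0.27 and psbL at 0.59 ± 0.27 (limma adjusted p 0.999 each). The nuclear partners of the members were mostly not analysed here, since of 14 listed Clp genes only CLPP4, a nuclear-encoded relative of clpP in the same protease core, was measured. Its log2 difference was -0.11 ± 0.20 in ara1OX and 0.04 ± 0.20 in ara1/2mut.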

How the data were processed

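The data are 12 ATH1 arrays of seedling roots, placed by their titles in 4 groups of 3. The authors deposited intensities on a linear scale, for which the submitters' processing notes name MAS5. The sources used here do not give its version, its target or the labelling primer. Plastid messengers mostly lack stable poly(A) tails, so the primer bears on how they are read. After 2% of the values at either end were left out, each array averaged 100. The arrays had thus been scaled, which hides any shift common to all transcripts. Detection calls were not used.

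The test used log2 signals with no other normalization. Of 22810 probe sets, 64 were controls and stayed out, and the 13648 whose mean log2 signal reached the 40th percentile (4.49) were tested. One limma 3.58.1 model (R 4.3.3) held all 12 arrays with 4 group means and a variance trend, giving 8 residual and 7.49 prior degrees of freedom. A probe set counted as changed where its two-sided p, adjusted by Benjamini-Hochberg over all tested probe sets, was under 0.05. The procedure was first tested on simulated data with independent noise for each probe set. That setting leaves out any spread that the members share within an array. Precision is limited by the number of arrays.

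Names came from the platform's table (14016 probe sets, with 8730 unnamed here), and gene order from the TAIR10.1 table. The 6 probe sets with mitochondrial or mixed rps or rpl names were left out. The members and lists were chosen with earlier results of these data known. Of the nuclear partner lists, those for the polymerase (28 genes), acetyl-CoA carboxylase (4), import (12), the ycf2 complex (6) and the plastid ribosome (18) had no named probe set.

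Per comparison, the rule gave every array's value for members that passed, then for those of smallest p without overlap, and for the highest and lowest fitted tested members. This took rps19, rps15 and rpl20 in ara1OX, clpP, rpl14 and rpoA in ara1/2mut, and rps19, rpoC1, clpP and rpoA in Col-3. The other members given array by array were chosen after their values were seen. Of other genes, up to 3 per list of smallest p could be named.

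The fit was repeated after quantile normalization or median centring, without the filter or with one at the 60th percentile, on log2(signal + 16), without the variance trend, with array weights, on just the groups compared, with the replicate number as a block, and without each array in turn. The counts of members per array and the mitochondrial list were added after seeing the data.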

Additional observations from a re-analysis of the deposited data

How the results depend on the processing

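No member changed in any of the 4 comparisons under any of the 9 alternative settings (8 for the difference of the changes, which needs all 4 groups) or with any of the 12 arrays left out, and the lowest adjusted p of a member was 0.0707 (limma, rps19 in Col-3 against Col-0, array weights). The median log2 difference of the members ran from -0.33 to -0.06 in ara1OX, 0.16 to 0.37 in ara1/2mut, -0.08 to 0.09 for the wild types and -0.63 to -0.46 for the difference of the changes. With each array left out in turn it ran from -0.50 to 0.01, 0.10 to 0.42, -0.25 to 0.14 and -0.86 to -0.33. The number of probe sets changed on the whole array moved more. In ara1OX it was 3, and 15 with array weights, 5 with only the groups compared and 17 with the replicate block, and 3 to 14 with an array left out (14 without ara1OX replicate 2). In ara1/2mut it was 0, and 4 with array weights, and 0 to 1 with an array left out. In Col-3 against Col-0 it was 0, and 0 to 2 with an array left out. For the difference of the changes it was 2, and 1 with median centring, 0 without the variance trend, and 0 to 2 with an array left out. The rpoA difference in ara1/2mut, close to 0, changed sign in 4 settings, between which it ran from 0.04 to 0.26. The replicate numbers were not part of the main fit, and whether same-numbered arrays belonged together was not tested. Same-numbered arrays deviated together with r of 0.14, 0.03 and 0.12 across probe sets in ara1OX and Col-0, 0.18, 0.10 and 0.26 in ara1/2mut and Col-3, and -0.00, -0.08 and 0.02 in Col-3 and Col-0, and 9 of 12 arrays correlated best with an array of their own number. With the block the members' lowest adjusted p in limma was 0.365 in ara1OX, 0.979 in ara1/2mut, 0.313 for the wild types and 0.624 for the difference of the changes. The cause of these shifts was not tested. How far above background the 5 member probe sets below the filter lay was not measured.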
